A study of Homo sapiens with 16 samples.

Results

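Fibrillar collagens, collagen VI and collagen XII are represented here by 10 human genes: COL1A1, COL1A2, COL3A1, COL5A1, COL5A2, COL11A1, COL6A1, COL6A2, COL6A3 and COL12A1. Every probe set whose single gene symbol was one of these names was taken, which gave 37 of the 54675 probe sets on the array and 10 of 19775 named genes. Each gene had between 1 probe set (COL6A3) and 8 (COL6A1), and unless another is named the values below are those of its brightest one. All values are log2 signals, so a difference of 1 is a doubling, and signals of different genes were not set against each other.

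RNA came from SAOS, an established human osteosarcoma cell line known to lack functional RB, on 16 arrays in 4 groups of 4. The cells were left untransfected (control, called wild type in the labels), or were transiently transfected with human RB, with mouse SMYD2, or with both. Every group carried the replicate numbers 1, 3, 4 and 5. The labels give no arm with an empty vector, so each difference from control includes whatever transfection itself did, while RB plus SMYD2 against SMYD2 compared transfected cells with transfected cells. Transient transfection can reach only some of the cells, and each value is an average over all of them; a change in all cells and a larger one in some cannot be told apart. The study asked how overexpressed SMYD2, a protein lysine methyltransferase, acts on ectopic RB, the retinoblastoma protein that restrains E2F factors and the cell cycle.

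Collagens are secreted proteins whose chains wind around each other in a long helix. Collagen I, made of COL1A1 and COL1A2 chains, is the main fibril of bone, and osteoblasts are its chief source there. Collagen III co-assembles with it in soft tissues. Collagens V and XI lie inside fibrils, help to start them and limit their width. Collagen VI, built from COL6A1, COL6A2 and COL6A3 chains, forms beaded filaments close to cells, and collagen XII sits on the fibril surface. Osteosarcoma is a bone tumour whose cells lay down osteoid, a matrix rich in collagen I.

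Markers of the osteoblast lineage were high in these cells. RUNX2, ALPL, IBSP, DLX5 and SP7 all lay at or above the 85.0th percentile of all genes, and 6 of 8 osteoblast markers were above the median gene. The cartilage collagen COL2A1 read 4.61 on average, and only 1 of 6 chondrocyte markers (SOX9) was above the median gene. Of 6 fibroblast and myofibroblast markers 5 were above it, and their mean per array ran from 8.86 to 9.71 in control, 8.98 to 9.84 with RB, 8.38 to 9.78 with SMYD2 and 8.88 to 9.82 with both. Among them THY1 rose by 0.90 between RB plus SMYD2 and SMYD2 (limma adjusted p = 0.0217) and differed by 0.62 between RB and control (0.207). The osteoblast marker SPP1, dim at a mean of 5.62, rose by 0.83 with RB (adjusted p = 0.0079) and differed by 0.39 in the other comparison (0.174). The part of either in the collagen results was not tested. None of 4 endothelial and none of 4 leukocyte markers was above it (PTPRC, which marks leukocytes, read 3.82), though the endothelial TEK rose by 0.30 between RB plus SMYD2 and SMYD2 (adjusted p = 0.0200). Of 6 epithelial markers EPCAM (9.40) and KRT18 (9.74) were above the median gene and CDH1 read 4.11. The probe set of RB1 that registers the construct read 6.48 ± 0.32 (SD, n = 4) in control, 7.70 ± 0.34 with RB, 6.85 ± 0.17 with SMYD2 and 8.67 ± 0.90 with both. The brightest SMYD2 probe set read 10.16 ± 0.05 in control, 10.05 ± 0.14 with RB, 10.28 ± 0.07 with SMYD2 and 10.18 ± 0.02 with both. The dimmer ones read 4.91 and 5.94 in control and 4.90 and 5.80 with SMYD2. Expression of the SMYD2 construct could thus not be read clearly from these arrays. The difference between the 3′ and 5′ control probe sets of ACTB, which grows as RNA breaks down, was 3.53 on SMYD2 array 1 and 0.54 to 2.46 on the other 15 arrays. By replicate number it averaged 2.20 for number 1, 1.04 for number 3, 0.77 for number 4 and 0.77 for number 5. For GAPDH the same difference was 0.16 on SMYD2 array 1 and -0.006 to 0.10 on the rest. It was 0.02 to 0.06 on the other arrays of number 1 and 0.07 to 0.10 on those of numbers 4 and 5. The differences that SMYD2 array 1 moved most are given below with and without that array.

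The stretch before the start of transcription is shown for COL5A1 and COL6A2, because both rose between SMYD2 and RB plus SMYD2 and had their larger differences in the same replicate numbers (below). Each is the 250 bases upstream of the RefSeq start on GRCh38.p14, plus strand, at chr9:134641553-134641802 and chr21:46097862-46098111. Capitals mark the GC box GGGCGG on either strand, a sequence bound by Sp1-type factors, and the TATA box TATAAA.
COL5A1: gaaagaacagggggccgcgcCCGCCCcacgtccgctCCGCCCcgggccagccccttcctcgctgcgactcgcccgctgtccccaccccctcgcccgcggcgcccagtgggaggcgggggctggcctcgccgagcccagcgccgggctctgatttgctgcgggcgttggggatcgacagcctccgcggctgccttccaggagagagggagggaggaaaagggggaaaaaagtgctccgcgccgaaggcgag
COL6A2: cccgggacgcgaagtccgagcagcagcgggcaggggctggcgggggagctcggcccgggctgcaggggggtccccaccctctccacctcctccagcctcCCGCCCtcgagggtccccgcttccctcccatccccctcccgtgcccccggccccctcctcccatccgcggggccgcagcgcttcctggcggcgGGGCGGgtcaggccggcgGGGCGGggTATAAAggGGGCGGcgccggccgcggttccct
RefSeq entries were at hand for 5 of the 10 genes (COL5A1, COL6A2, COL6A3, COL11A1 and COL12A1). COL1A1, COL1A2, COL3A1, COL5A2 and COL6A1 had none. Both strands were searched for 6 motifs. A GC box was present in 4 of the 5 (4 copies before COL6A2, 3 before COL11A1, 2 before COL5A1 and 1 before COL12A1) and in 42.3% of 27305 promoters of the same length. A TATA box stood 32 bases before the start of COL6A2 and occurred in 11.1% of promoters. The CCAAT box was found before COL11A1 only, against 33% of promoters. Neither form of E2F site searched (TTTGGCG, in 1.6% of promoters, and TTTCCCG, in 3.7%) and no SMAD element CAGACA (13.6%) was found in the 5 windows. G and C made up 74.0% of the COL5A1 window and 79.6% of the COL6A2 window, against a median of 58.0% over all promoters.

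RB against control asked what ectopic RB did to the collagen transcripts. All 10 differences were above 0 (51.8% of all genes were), and their median was 0.56, against 0.01 over all genes. COL5A1 and COL6A1 passed the test (limma adjusted p under 0.05 over all 19775 genes), 2 of 10, where 1.24% of all genes were called higher. With the replicate number as a block, which compares arrays of equal number, COL1A2, COL11A1 and COL12A1 passed as well, 5 of 10 against 3.61% of all genes. None of the 10 was called lower in either fit. All 4 RB arrays exceeded all 4 control arrays for COL5A1 and COL6A1, 2 of 10, against 4.85% of all genes. The 10 genes were chosen with earlier results of these data known. Their counts beside the share of all genes, here and below, are thus a description only.

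RB plus SMYD2 against SMYD2 asked the same in cells that also carried SMYD2. Its group means shared no array with those of the first comparison. The tests were still not independent, because both took their spread from the same fit over all arrays. Same-numbered arrays also deviated together from their group means in most pairs of groups. The differences were again above 0 for all 10 genes (52.2% of all genes), with a median of 0.53 against 0.01. COL1A1, COL5A1, COL6A1 and COL6A2 passed the test, 4 of 10, where 2.94% of all genes were called higher. With the block COL1A2, COL11A1 and COL12A1 were added, 7 of 10 against 6.62%. For 5 genes (COL1A1, COL5A1, COL6A1, COL6A2 and COL12A1) the RB plus SMYD2 arrays lay wholly above the SMYD2 arrays, against 5.44% of all genes. Over both comparisons, 8 of 8 same-numbered differences were above 0 for COL1A2, COL5A1, COL6A1, COL11A1 and COL12A1, 5 of 10 genes, and for 7.21% of all genes.

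**Figure D1:**
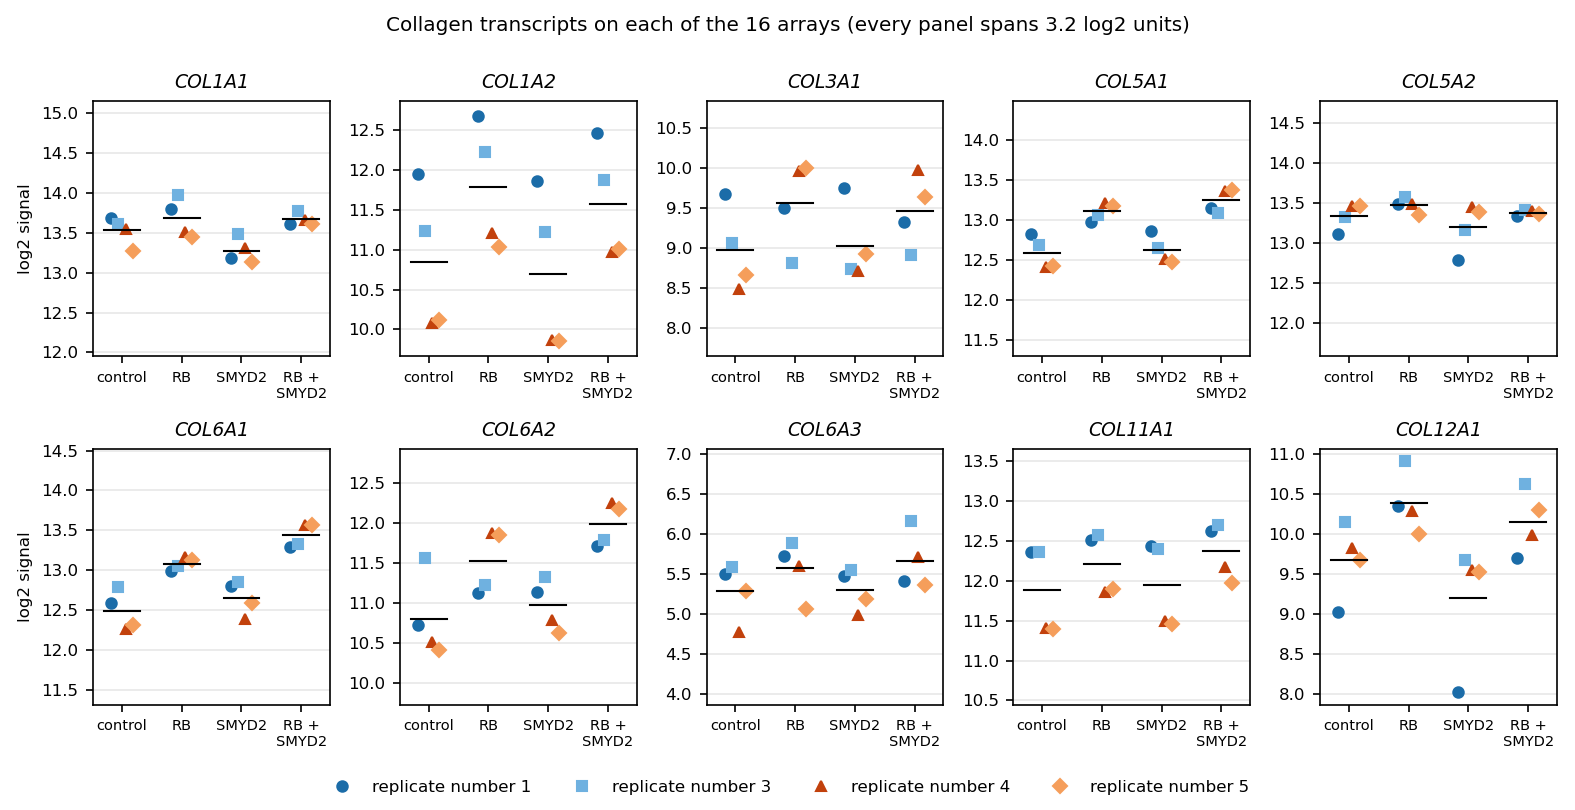
Log2 signal of the brightest probe set of each collagen gene (vertical axis) on the 4 arrays of each group, with shape and colour for the replicate number and a line at the group mean. COL1A2 and COL11A1 separate replicate numbers 1 and 3 from 4 and 5 in every group, whereas COL5A1 and COL6A1 separate cells with RB from cells without it.

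COL1A1 codes for the more abundant chain of collagen I. It was bright throughout. Arrays 1, 3, 4 and 5 read 13.69, 13.61, 13.54 and 13.27 in control and 13.79, 13.97, 13.51 and 13.45 with RB. These groups overlapped. The difference was 0.15 ± 0.11 (SE), and its 95% interval ran from -0.08 to 0.39 (limma adjusted p = 0.646). With SMYD2 the arrays read 13.18, 13.49, 13.31 and 13.13, and with RB plus SMYD2 13.61, 13.78, 13.66 and 13.61. Every one of the latter was above every SMYD2 array. That rise was 0.39 ± 0.11, or 1.31-fold (adjusted p = 0.0404; 0.0015 with the block). The call was lost when any of 8 arrays was left out (control array 4, SMYD2 arrays 1, 4 and 5, and each RB plus SMYD2 array), with COL1A1 at an adjusted p of 0.0537 to 0.107. With the block it was kept without any 1 of the 16 arrays. The third brightest probe set of COL1A1 differed by 0.47 between RB and control and by 0.58 between RB plus SMYD2 and SMYD2. The dimmest differed by -0.06 and 0.10, so the probe sets did not move alike.

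COL1A2, the other chain of collagen I, had the largest SD of the 10 genes, 0.91 over the 16 arrays. Control arrays 1, 3, 4 and 5 read 11.95, 11.23, 10.07 and 10.12. The RB arrays read 12.67, 12.22, 11.21 and 11.03. Numbers 1 and 3 were high and numbers 4 and 5 low in both groups, and the groups overlapped. SMYD2 arrays read 11.86, 11.21, 9.86 and 9.85, and RB plus SMYD2 arrays 12.46, 11.87, 10.97 and 11.00, with the same order of numbers. Within each number there was a rise with RB, of uneven size. It was 0.72, 0.98, 1.13 and 0.92 without SMYD2, and 0.60, 0.66, 1.11 and 1.15 with it. The mean differences were 0.94 (1.92-fold) and 0.88 (1.84-fold). Their SE of 0.52 without the block left adjusted p-values of 0.483 and 0.390. With the block the SE was 0.09 and limma's adjusted p-values were 2.05e-05 and 5.58e-06. Both block calls held without any 1 array. The second brightest probe set differed by 0.86 and 0.90, and the dim one by 0.35 and 0.49.

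COL3A1, the single chain of collagen III, split by replicate number. Control arrays read 9.67, 9.05, 8.49 and 8.66 and RB arrays 9.50, 8.81, 9.96 and 9.998. RB thus differed from control by -0.17 and -0.25 in numbers 1 and 3, and by 1.47 and 1.34 in numbers 4 and 5. The SMYD2 arrays read 9.75, 8.73, 8.71 and 8.93. The RB plus SMYD2 arrays read 9.32, 8.91, 9.97 and 9.64, which differed from them by -0.43, 0.18, 1.26 and 0.71. Both groups with RB overlapped the groups without it. The mean differences of 0.60 ± 0.31 and 0.43 ± 0.31 did not pass the test (adjusted p = 0.440 and 0.497), with 95% intervals from -0.05 to 1.25 and from -0.22 to 1.08. The next brightest probe sets gave like values (0.64 and 0.49, then 0.83 and 0.68), and 2 dim ones lay between 0.003 and 0.12.

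COL5A1, a chain of collagen V, rose in both comparisons. Control arrays read 12.83, 12.69, 12.41 and 12.43, and RB arrays 12.98, 13.06, 13.22 and 13.18. The groups did not overlap. COL5A1 rose by 0.52 ± 0.11, or 1.43-fold (adjusted p = 0.0103). It rose by 0.62 ± 0.11, or 1.54-fold, between SMYD2 arrays (12.87, 12.65, 12.51 and 12.48) and RB plus SMYD2 arrays (13.15, 13.09, 13.37 and 13.38; adjusted p = 0.0012). All 3 of its probe sets were called in both comparisons, with differences of 0.49 to 0.63. The first call was just lost without control array 4 (adjusted p = 0.0508), and the second was kept without any 1 array. Without all 4 arrays of number 4 or of number 5, COL5A1 had an adjusted p of 0.244 or 0.171 in the first comparison and of 0.0364 or 0.0455 in the second. Calls over all genes then fell from 585 to 24 or 112 in the first comparison. In the second they fell from 1422 to 472 or 454.

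COL5A2, the partner chain of COL5A1 in most collagen V, did not pass the test in either comparison. Control arrays read 13.11, 13.32, 13.46 and 13.46, and RB arrays 13.48, 13.58, 13.48 and 13.34. The difference of 0.13 had a 95% interval from -0.11 to 0.37 (adjusted p = 0.723). The SMYD2 arrays read 12.78, 13.16, 13.45 and 13.39, and the RB plus SMYD2 arrays lay between 13.34 and 13.42. The low SMYD2 value was that of array 1. This second difference was 0.18, interval -0.06 to 0.42 (adjusted p = 0.417), and 0.04 without SMYD2 array 1.

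COL11A1, a chain of collagen XI, followed the replicate number most closely. Numbers 1 and 3 read 12.36 and 12.36 in control, 12.51 and 12.57 with RB, 12.43 and 12.39 with SMYD2, and 12.62 and 12.70 with both. Numbers 4 and 5 read 11.41 and 11.40 in control, 11.85 and 11.89 with RB, 11.49 and 11.45 with SMYD2, and 12.17 and 11.97 with both. The numbers 4 and 5 were thus lower in each group. Same-numbered differences were 0.15, 0.21, 0.44 and 0.49 without SMYD2 and 0.19, 0.31, 0.67 and 0.52 with it. Their means of 0.32 and 0.42 passed only with the block (adjusted p = 0.0150 and 0.0012; 0.729 and 0.460 without it). With the block, omitting 1 array at a time left the first call in 12 of 16 cases (at worst 0.0858, when control array 4 was omitted) and the second in 16 of 16. The next brightest probe set of COL11A1 differed by 0.34 and 0.48. Its dimmest differed by 0.21 and 0.56 and was not called even with the block (limma adjusted p = 0.652 and 0.0538 over all probe sets).

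COL6A1, the first chain of collagen VI, rose in both comparisons. Control arrays read 12.60, 12.79, 12.27 and 12.32 and RB arrays 12.99, 13.05, 13.17 and 13.13. SMYD2 arrays read 12.80, 12.85, 12.39 and 12.59, and RB plus SMYD2 arrays 13.29, 13.33, 13.57 and 13.57. Every array with RB was above every array without it. COL6A1 rose by 0.59 ± 0.12, or 1.51-fold (adjusted p = 0.0087), and by 0.78 ± 0.12, or 1.72-fold (adjusted p = 3.32e-04). Both calls were kept without any 1 array. Without all arrays of number 4 or of number 5, COL6A1 had an adjusted p of 0.139 or 0.170 in the first comparison. Calls over all genes fell in these runs too, as given for COL5A1. The mean of all 8 probe sets rose less, by 0.26 in the first comparison (adjusted p = 0.312). Of these sets, 3 were dim (means of 4.61 to 4.84 in control) and differed by -0.11 to 0.02 between RB and control. The next brightest set differed by 0.65 and 1.08.

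COL6A2, the second chain of collagen VI, read 10.72, 11.56, 10.51 and 10.41 in control and 11.13, 11.23, 11.88 and 11.86 with RB. Control array 3 was high and lay inside the RB range. The difference of 0.72 ± 0.24 (1.65-fold) did not pass the test (adjusted p = 0.139), and did pass without control array 3 (0.97, adjusted p = 0.0173 for COL6A2). With SMYD2 the gene read 11.14, 11.33, 10.79 and 10.63, and with RB plus SMYD2 11.71, 11.80, 12.25 and 12.18. Here the groups did not overlap. The rise of 1.01 ± 0.24 was the largest called among the 10 collagens in the comparisons of RB against control and of RB plus SMYD2 against SMYD2 without the block, 2.02-fold (adjusted p = 0.0130). COL6A2 lost that call without RB plus SMYD2 array 4 (adjusted p = 0.0550) or array 5 (0.0513), and kept it with the block without any 1 array. Its dimmer probe set differed by 0.50 and 0.46.

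COL6A3, the third chain, has a single probe set, which was dim. It ran from 4.77 to 5.58 in control, from 5.05 to 5.89 with RB, from 4.98 to 5.54 with SMYD2 and from 5.36 to 6.15 with both. All groups overlapped. The differences of 0.29 (95% interval -0.16 to 0.73) and 0.36 (-0.08 to 0.80) did not pass the test (adjusted p = 0.654 and 0.377). No detection call came with the signals, so how much of this one is above background is unknown.

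COL12A1 codes for collagen XII, which links fibrils to other matrix. Control arrays read 9.02, 10.14, 9.83 and 9.67, and RB arrays 10.35, 10.91, 10.29 and 9.99. The difference of 0.72 ± 0.32 (1.65-fold) passed only with the block (adjusted p = 0.338 without and 0.0350 with it). That block call survived in 9 of the 16 cases with 1 array omitted, and was at worst 0.105 when control array 1 was omitted. SMYD2 arrays read 8.02, 9.68, 9.54 and 9.52, and RB plus SMYD2 arrays 9.70, 10.62, 9.99 and 10.30. These groups did not overlap, and SMYD2 array 1 stood far below the rest. The rise of 0.96 (1.94-fold) passed with the block (adjusted p = 0.0032; 0.0880 without it). Without SMYD2 array 1, COL12A1 differed by 0.57 (adjusted p = 0.189 without the block). With the block all 16 sets kept the call, with differences of 0.69 to 1.10. The part of RNA quality on that array in the size of the difference was not tested beyond leaving it out. The next brightest probe set of COL12A1 differed by 1.02 and 1.13 and the third by 0.58 and 0.70. The remaining dim ones differed by -0.06 to 0.02 and by -0.08 to 0.11. Adjusted over all 41097 probe sets, the brightest set had limma adjusted p-values of 0.0587 and 0.0063 with the block.

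**Figure D2:**
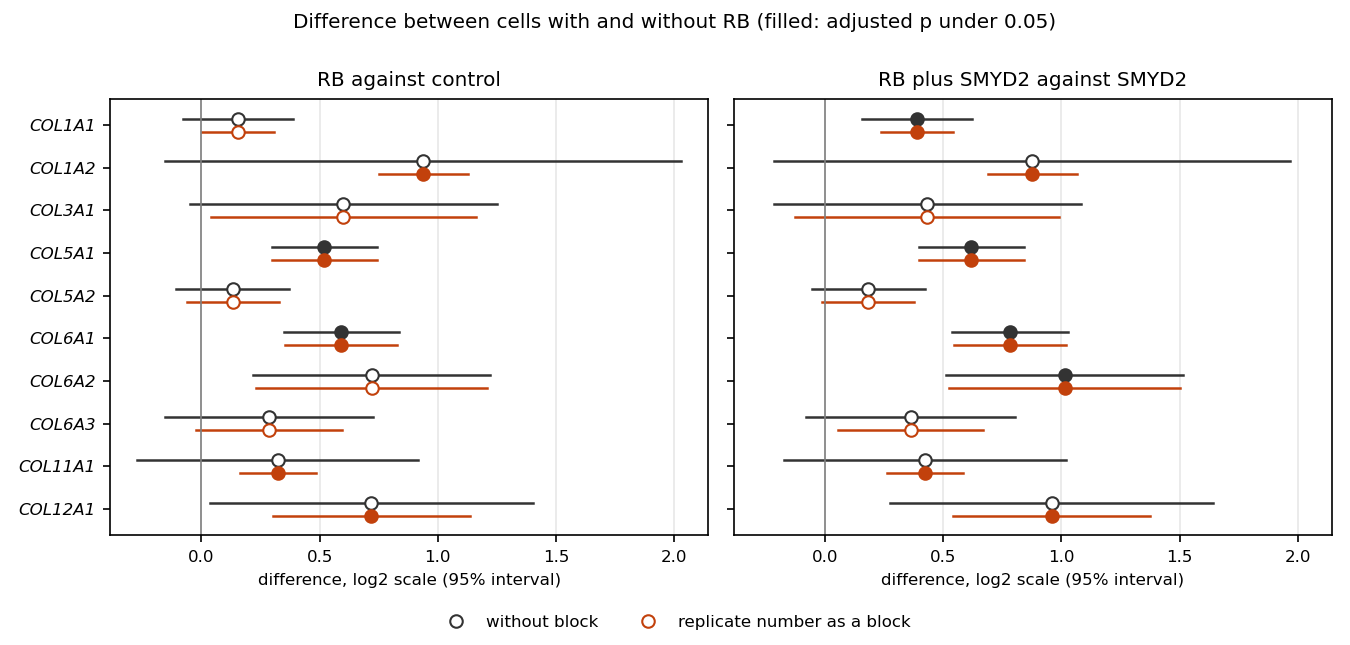
Difference in log2 signal (horizontal axis) with its 95% interval for each collagen gene, for RB against control and for RB plus SMYD2 against SMYD2, without (dark) and with (orange) the replicate number as a block. Filled points passed the test: COL5A1 and COL6A1 in both comparisons and both fits. The interval of COL1A2 narrows most with the block, from an SE of 0.52 to 0.09.

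Across all 37 probe sets, 33 read higher with RB than in control, of which 4 were called (11 with the block, adjusted over 41097 probe sets). Of the 41097 probe sets, 608 were called in either direction (1693 with the block). Between RB plus SMYD2 and SMYD2, 35 of 37 were higher and 8 were called (20 with the block). Here 1847 of the 41097 were called in either direction (3754 with the block). No collagen probe set was called lower in either. The 37 sets belong to 10 genes and are not separate observations. The share of all probe sets that read higher is not given here.

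The difference with RB varied with the replicate number for 5 of the 10 genes, against 3.53% of all genes (moderated F-test of RB by replicate number over all 16 arrays, a test added after seeing the data). These were COL3A1 (adjusted p = 5.40e-04), COL6A2 (5.80e-04), COL6A1 (0.0029), COL5A1 (0.0032) and COL5A2 (0.0224). In 4 of them the rise was larger in numbers 4 and 5. COL6A2 differed by 0.40, -0.33, 1.37 and 1.45 in numbers 1, 3, 4 and 5 without SMYD2, and by 0.57, 0.47, 1.46 and 1.55 with it. COL5A1 differed by 0.15, 0.37, 0.81 and 0.75, then by 0.28, 0.44, 0.86 and 0.90. COL6A1 differed by 0.39, 0.26, 0.90 and 0.81, then by 0.49, 0.48, 1.19 and 0.97. The same split by number appeared with SMYD2 and without it in these genes, as it did in COL3A1. COL5A2 went the other way, with 0.37, 0.26, 0.02 and -0.11, then 0.56, 0.25, -0.05 and -0.03. COL12A1 was likewise largest in number 1, with 1.33, 0.76, 0.46 and 0.32, then 1.68, 0.94, 0.44 and 0.77, but did not pass this test (adjusted p = 0.0861). Omitting 1 of the 16 arrays at a time, COL3A1, COL5A1, COL6A1 and COL6A2 passed 16 times and COL5A2 passed 10 times. Without control array 1 the count was 8 of 10 genes. No share of all genes is given for that run, so this count is a description only.

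The RB1 signal also differed between the numbers. It was 7.40 and 7.43 on RB arrays 1 and 3 and 8.10 and 7.87 on arrays 4 and 5. With RB plus SMYD2 it was 7.90 on array 1, 7.90 on array 3, 9.25 on array 4 and 9.62 on array 5. The excess over the same-numbered array without RB was 1.16, 0.94, 1.84 and 0.94 without SMYD2, and 1.01, 1.31, 2.26 and 2.70 with it. The ACTB difference between 3′ and 5′ probe sets ran from 1.17 to 3.53 in number 1, 0.54 to 1.58 in number 3, 0.56 to 1.02 in number 4 and 0.55 to 1.07 in number 5. For GAPDH it ran from 0.02 to 0.16 in number 1 and from -0.006 to 0.09 in number 3. In numbers 4 and 5 it was 0.07 to 0.10. The part of the RB1 signal or of RNA quality in the collagen differences was not tested.

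**Figure D3:**
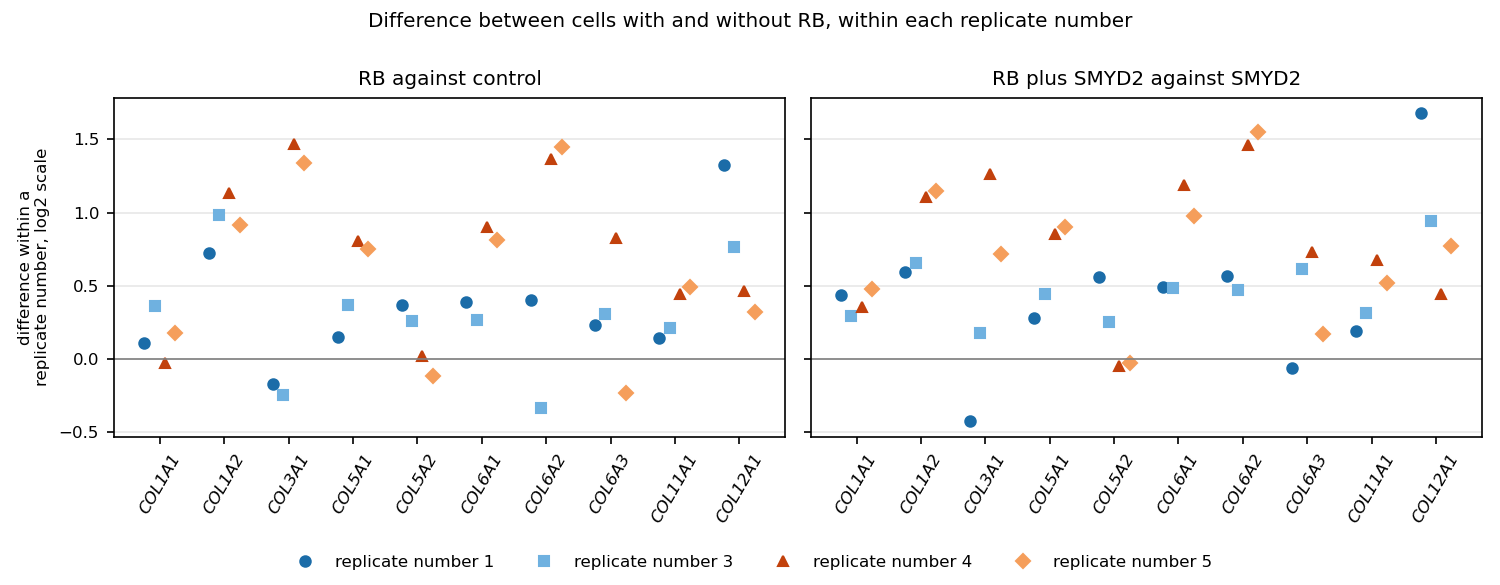
Difference in log2 signal between arrays of equal replicate number (vertical axis), for RB against control and for RB plus SMYD2 against SMYD2. In COL3A1, COL5A1, COL6A1 and COL6A2 numbers 4 and 5 lie above numbers 1 and 3 in both panels. COL5A2 shows the opposite order, and number 1 is highest for COL12A1 (1.33 and 1.68).

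Replicate numbers differed for 5 of the 10 genes (moderated F-test with the groups in the fit), against 15.9% of all genes. They were COL1A2 (adjusted p = 7.68e-09), COL11A1 (1.31e-06), COL12A1 (0.0087), COL1A1 (0.0191) and COL6A3 (0.0319). For COL1A2 the number held 70.9% of the sum of squares over the 16 arrays, the group 27.7% and the remainder 1.41%. For COL11A1 the number held 77.1% and the group 19.1%. COL5A1 and COL6A1 were the reverse, with 80.7% and 84.6% between groups and 1.27% and 1.99% between numbers. COL6A2 had 65.7% between groups. COL3A1 left 50.9% to the remainder, which contains the split of its RB difference by number. Medians over all genes were 21.8% for the group, 23.9% for the number and 44.3% for the remainder. The group as a whole differed for COL5A1, COL6A1 and COL6A2, 3 of 10 genes against 6.67% of all genes. With the block this rose to 7 of 10 against 13.4%. The labels do not say what the number stands for.

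**Figure D4:**
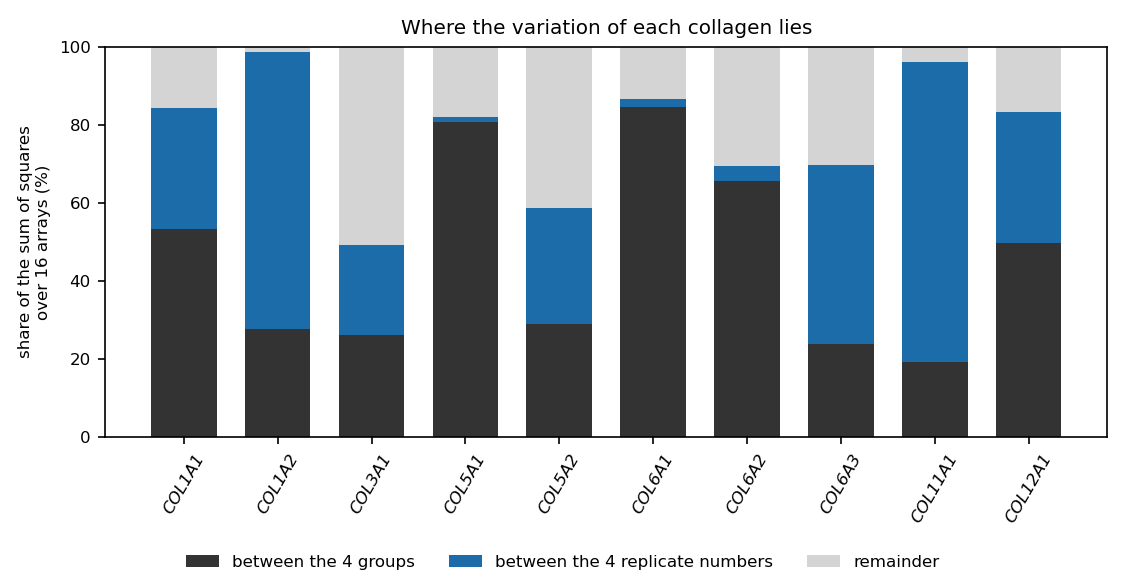
Share of the sum of squares over 16 arrays (vertical axis, %) that lies between the 4 groups, between the 4 replicate numbers and in the remainder, for each collagen gene. The number dominates COL1A2 (70.9%) and COL11A1 (77.1%), and the group dominates COL5A1 (80.7%) and COL6A1 (84.6%).

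SMYD2 against control asked what SMYD2 did without added RB, and no collagen gene passed the test (0 of 10, with 0.00% of all genes called higher). No SMYD2 probe set clearly registered the construct (above). At an unadjusted p under 0.05 limma counted 572 of all genes and 1 of the 10, and with the block 868 and 2. COL1A1 was lower in 4 of 4 same-numbered pairs, by 0.51, 0.12, 0.24 and 0.14 (mean of -0.25, 95% interval -0.48 to -0.02, adjusted p = 0.991). COL12A1 was also lower in 4 of 4 pairs, and the pair of number 1, which includes SMYD2 array 1, differed by -1.01 against -0.15 to -0.47 in the other 3. Its mean of -0.48 had an interval from -1.16 to 0.21, and was -0.09 (interval -0.60 to 0.43) without SMYD2 array 1. COL1A2 and COL5A2 were lower in 4 of 4 pairs as well, and COL6A1 (by 0.06 to 0.27) and COL11A1 (by 0.04 to 0.08) were higher in 4 of 4. No share of all genes with 4 of 4 pairs on 1 side is given for this comparison, so these counts are a description only. The genes other than COL1A1 and COL12A1 differed by -0.15 to 0.17 on average. Without SMYD2 array 1, COL1A1 differed by -0.22, COL5A2 by -0.005 in place of -0.14, and COL1A2 by -0.53 in place of -0.15 (-0.21 with the block). For COL1A2 the interval ran from -1.24 to 0.94 without the block and from -0.34 to 0.04 with it, so a fall of 1 log2 unit lay outside it only with the block.

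RB plus SMYD2 against RB asked whether SMYD2 changed the collagens in cells with RB. Again 0 of 10 passed the test (0.00% of all genes called higher). Unadjusted p-values under 0.05 numbered 856 over all genes and 1 among the 10, and 1236 and 2 with the block. COL6A1 was higher in 4 of 4 pairs, by 0.30, 0.28, 0.41 and 0.43, and the arrays did not overlap. Its mean difference was 0.36 ± 0.12 (interval 0.11 to 0.60, adjusted p = 0.904; 0.524 with the block). COL6A2 was higher by 0.59, 0.57, 0.37 and 0.33 (mean 0.46, interval -0.04 to 0.96, adjusted p = 1.000). COL1A2 was lower in 4 of 4 pairs, by 0.03 to 0.35. No share of all genes without overlap, or with 4 of 4 pairs on 1 side, is given for this comparison. These pair counts are thus a description only. The RB1 probe set read 8.67 in these cells against 7.70 with RB alone, and its part in the COL6A1 and COL6A2 values was not tested.

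The interaction, the difference with RB in the presence of SMYD2 minus that in its absence, passed the test for 0 of 10 genes and for 0.00% of all genes. Unadjusted p-values under 0.05 numbered 582 over all genes and 0 among the 10 (786 and 1 with the block). Estimates ran from -0.17 for COL3A1 to 0.29 for COL6A2, and without SMYD2 array 1 from -0.15 for COL12A1 (0.24 with it) to 0.35 for COL6A2. Their intervals spanned -0.09 to 0.57 for COL1A1, -0.21 to 0.41 for COL5A1, -0.16 to 0.54 for COL6A1 and -0.42 to 1.00 for COL6A2, so a moderate effect of SMYD2 on the RB difference could not be told from none.

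Both constructs together differed from control in the same direction as RB alone, with control arrays shared between these comparisons. COL5A1 was higher by 0.66 (1.58-fold), COL6A1 by 0.95 (1.93-fold) and COL6A2 by 1.18 (2.27-fold), with adjusted p-values of 6.60e-04, 4.84e-05 and 0.0042. These were 3 of 10, against 3.00% of all genes, and with the block COL1A2 and COL11A1 joined them, 5 of 10 against 6.17%. Between RB and SMYD2, which differ in both constructs, COL5A1 alone passed (0.48, adjusted p = 0.0166), 1 of 10 against 1.39%. COL1A1, COL6A1 and COL12A1 had adjusted p-values of 0.0550, 0.0536 and 0.0531 (0.0936, 0.0340 and 0.0799 without SMYD2 array 1, where COL6A1 passed and COL12A1 differed by 0.80 in place of 1.19). COL5A1 lost its call without RB array 4 (adjusted p = 0.0695), RB array 5 (0.0531), SMYD2 array 4 (0.0507) or SMYD2 array 5 (0.0515).

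The genes that act on collagen chains were read from 8 lists. Among 20 measured genes of folding and modification in the endoplasmic reticulum, 1 rose with RB (6 with the block) and 2 rose between RB plus SMYD2 and SMYD2 (6 with the block), none falling. P4HA2, a subunit of prolyl 4-hydroxylase, which stabilises the collagen helix, was called in both. It read 11.58, 11.75, 11.50 and 11.56 in control and 11.83, 11.94, 12.08 and 11.96 with RB, without overlap. It rose by 0.35 ± 0.08 (adjusted p = 0.0140) and by 0.45 (adjusted p = 0.0011). P3H1, a prolyl 3-hydroxylase, rose by 0.45 in the second comparison (adjusted p = 0.0466) and differed by 0.44 in the first (0.0958). The median differences of this list were 0.12 and 0.17. Of 17 genes of procollagen processing and crosslinking, 0 were called with RB (3 with the block). TLL2, a proteinase related to the one that trims procollagen ends, rose by 0.38 between RB plus SMYD2 and SMYD2 (adjusted p = 0.0102). It was 1 of 17, and 5 with the block.

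Of 19 proteoglycans and glycoproteins that bind fibrils, 3 rose with RB (5 with the block, where 1 fell). OMD, osteomodulin, an extracellular proteoglycan of bone, rose by 1.26 ± 0.21 (adjusted p = 0.0027). SPARC, osteonectin, which binds collagen I, rose by 0.81 ± 0.16 (0.0105), and THBS2, a matricellular thrombospondin, by 0.52 ± 0.10 (0.0078). The same 3 rose between RB plus SMYD2 and SMYD2, by 1.63, 0.81 and 0.59, and FBLN1, fibulin 1, fell by 0.62 (adjusted p = 0.0234), and with the block 6 rose and 1 fell. Of 13 receptors, ANTXR2, which binds collagen VI, rose by 0.56 and 0.51 (adjusted p = 0.0015 and 8.84e-04). ANTXR1, a related receptor, rose by 0.73 in the second comparison (adjusted p = 0.0032) and differed by 0.42 in the first (0.144). With the block 3 and 4 receptors rose. Of 16 genes of collagen breakdown and its inhibitors, 0 were called with RB (1 with the block). In the second comparison 3 rose: the inhibitors TIMP2 (0.50, adjusted p = 0.0036) and TIMP4 (0.37, 0.0394), and MMP2, a gelatinase (0.49, 0.0397), with 5 rising under the block. Of 33 other collagens, COL8A2 (0.57 and 0.73) and COL4A6 (0.45 and 0.43), dim at a mean of 4.41, were called in both comparisons; with the block 3 rose in the first, and 4 rose and 1 fell in the second.

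Upstream genes were read from the remaining lists. Of 18 genes of TGF-beta signalling, which drives collagen transcription in many cells, 0 were called in either comparison or fit, and the list's medians were 0.03 and 0.06. The largest differences with RB were those of TGFBR2 (0.22, adjusted p = 0.668) and SMAD2 (0.20, 0.285). Of 21 transcription factors known to act on collagen genes, 0 were called with RB (3 lower with the block) and 2 fell between RB plus SMYD2 and SMYD2. MYB fell by 0.85 (adjusted p = 0.0017) and NFYB, a subunit of the factor that binds CCAAT boxes, fell by 0.52 (0.0368); with the block 2 rose and 2 fell. With RB alone they differed by -0.40 and -0.43 (adjusted p = 0.210 and 0.155). Over all genes, 1.24% were called higher and 1.71% lower with RB (3.61% and 3.47% with the block), and 2.94% higher and 4.25% lower in the second comparison (6.62% and 7.60%).

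The genes whose profile over the 16 arrays lay nearest to that of COL1A2 were CD86 (known as a co-stimulatory molecule of immune cells), ADAMTS2, ZSCAN18, PTPRM (a receptor-type phosphatase) and RIN2. Nearness was the root mean square of the differences between profiles, each centred on its own mean, and was 0.33 to 0.42 for these 5 against a median of 0.89 over all genes. By this measure COL11A1 ranked 18th of all genes, COL6A3 295th, COL5A1 777th, COL1A1 818th and COL6A1 917th. COL3A1 ranked 3413th and COL6A2 5847th. COL5A2 (rank 15602) and COL12A1 (rank 18524) lay farther from COL1A2 than the median gene, at 0.94 and 1.02. ADAMTS2, which removes the amino-terminal end of procollagens, is dim here (mean 6.66). It read 6.94, 6.56, 5.56 and 5.84 in control, 7.24, 7.35, 6.51 and 6.75 with RB, 7.53, 6.30, 5.32 and 5.42 with SMYD2, and 7.79, 7.62, 6.91 and 6.85 with both. The gene was named for its likeness to COL1A2 on these same arrays, so these values are a description. Its differences were 0.74 and 1.15.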

How the data were processed

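Total RNA of SAOS cells was hybridised to 16 one-colour arrays. The deposited values are log2 signals, made with RMA by the authors per the submitters' processing notes (version not given in the sources used here); whether the 16 arrays were normalized together is not given either. RMA gives no detection call and tends to compress differences of dim probe sets. Array medians ran from 5.59 to 5.64. Precision is limited by how many arrays there are.

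Symbols were those of the platform annotation: 41097 probe sets had 1 symbol, 1801 several and 11777 none, and 41043 of the first matched RefSeq with 0 changed. Each gene took its brightest probe set (19775 genes). Differences were fitted with limma 3.58.1 (R 4.3.3; lmFit with a mean per group over all 16 arrays, eBayes with a trend), two-sided, Benjamini-Hochberg adjusted over all genes, threshold 0.05. Errors are SE for differences and SD for levels, n = 4 a group. No label states that replicates were separate cultures, so the p-values reflect the spread of these samples alone, possibly technical.

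Same-numbered arrays deviated together from their group means (each pair's correlation at least 0.145 for every pair of groups except RB with SMYD2, lowest -0.08), so a fit with the number as a block is given where it changes a call, except for RB against SMYD2, where it is given only among the alternatives. Alternatives covered scaling, probe set choice, a filter at a mean of 6, array weights, trend, samples in the fit and left-out arrays. The fit was checked on simulated data with independent noise and a constant RB difference in each changed gene. That check did not cover an RB difference that varies with the replicate number. Named genes were the 10 collagens, RB1, SMYD2, list members called in either RB comparison (at most 6, or the 2 largest differences) and the 5 genes nearest COL1A2. Members and lists were chosen with earlier results of these data known. Figures were drawn with matplotlib 3.10.9.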

Additional observations from a re-analysis of the deposited data

Results flagged for a closer look

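Of 40 sets of 4 arrays examined (10 genes in 4 groups), 1 held an array far from the others. COL12A1 read 8.02 on SMYD2 array 1, against 9.52 to 9.68 on the other 3 SMYD2 arrays, a gap of 0.909 of the whole range, above Dixon's 95% critical value. Chance marks about 1 such set in 20. The ACTB difference between 3′ and 5′ probe sets was 3.53 on that array, the highest of the 16. For GAPDH it was 0.16, against -0.006 to 0.10 on the others.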

How the results depend on the processing

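With the replicate number as a block, the collagen genes called were 5 for RB against control, 7 for RB plus SMYD2 against SMYD2, 5 for RB plus SMYD2 against control, 6 for RB against SMYD2 (where the numbers did not pair all arrays) and 7 for the group as a whole, in place of 2, 4, 3, 1 and 3; the block changed no other count of calls. For RB against control, the mean of all probe sets left 1 call and array weights gave 4. Array weights gave 5 for RB plus SMYD2 against control, where calls over all genes in either direction rose from 1424 to 3687. For RB against SMYD2 the count was 6 with array weights, 4 with only genes of mean 6 or above, 3 with centred arrays, 2 with quantile normalization repeated and 2 with every probe set tested. Leaving out single arrays or all arrays of a number gave 0 to 3 calls for RB against control (0 without number 4 and 0 without number 5), 2 to 4 for RB plus SMYD2 against SMYD2, 2 to 3 for RB plus SMYD2 against control, 0 to 4 for RB against SMYD2, 3 to 5 for the replicate number (3 without RB array 3 or SMYD2 array 3), 3 to 4 for the group as a whole and 4 to 8 for RB by replicate number. Calls over all genes moved as well. For RB against control they numbered 585 in the fit used above, 24 without number 4, 112 without number 5 and 2296 with array weights. For RB against SMYD2 they numbered 642, 54, 160 and 1790 in the same order. They were 1831 with the block and 805 with only genes of mean 6 or above. With centred arrays they were 661, and with quantile normalization repeated 639. For RB by replicate number, calls over all genes in the left-out runs are not given here. No called difference changed sign under any alternative run. Gene by gene, 1043 alternatives kept the side of the threshold, 42 gained a call and 31 lost one; the cause was not tested. Depth in reads does not apply to arrays, and COL6A3 and the dim probe sets are limited by signal over an unknown background.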
